A study of Mus musculus with 126 samples.

Results

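Wee1, Cdkn1a, Ccnd1, Myc and Gadd45a, genes that are often described as links between the circadian clock and the cell cycle, were followed over the day in mouse colon. They were taken by gene symbol from the deposited expression tables, where they are 5 of 24883 rows, and each was measured in all 126 libraries. All 5 were also among the 11377 rows abundant enough to be tested. The libraries came from 7 conditions, each sampled at zeitgeber time (ZT, hours after lights on) 0, 4, 8, 12, 16 and 20, with 3 libraries per time and so 18 per condition. In the genotype experiment, mice with a gut-specific knock out of Bmal1, the activating partner of CLOCK, mice with a knock out of MR, the mineralocorticoid receptor, and wild type mice ate normal chow at all hours. Both knock out lines were 8 to 12 weeks old, and the labels give no age for wild type. The labels give no hours of light and dark for this experiment. The labels do not make plain whether the MR deletion was also gut-specific, and the sources used here do not name the driver of the deletion or the cell types it covers. In the feeding experiment, male C57BL/6 mice aged 8 weeks were given high salt food by day, high salt food by night, low salt food by day or low salt food by night, with lights on for 12 h and off for 12 h a day. All 4 groups of that experiment were food restricted in time, and none of them carried an allele named in the labels.

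In the clock, BMAL1 and CLOCK bind E-boxes in the DNA and switch on Per, Cry and Nr1d1, whose products then shut that activity down, so that each gene has its own hour of the day. The 5 genes act at the points where a cell decides to divide. Ccnd1 encodes cyclin D1, which activates CDK4 and CDK6 to carry a cell through G1. Cdkn1a encodes p21, an inhibitor of cyclin-dependent kinases that p53 induces. Wee1 encodes the kinase that holds CDK1 inactive before mitosis, and it is known in mouse liver as a direct target of the clock. Myc encodes a transcription factor for growth genes that WNT signals maintain in crypts, and Gadd45a encodes a stress sensor that binds CDK1 and PCNA. In the colon the dividing cells sit at the base of the crypts, and the surface cells that outnumber them no longer divide.

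On build mm10, Wee1 (ENSMUSG00000031016) lies on the plus strand at chr7:110122046-110143286 and Ccnd1 (ENSMUSG00000070348) on the minus strand at chr7:144929931-144939925. Cdkn1a (ENSMUSG00000023067) lies on the plus strand at chr17:29090976-29100727, Myc (ENSMUSG00000022346) on the plus strand at chr15:61985391-61990374 and Gadd45a (ENSMUSG00000036390) on the minus strand at chr6:67035096-67037457. Exons of 3 of the genes overlap exons of a transcript on the opposite strand. Those of Gadd45a overlap E230016M11Rik, which had its own row at a mean of 1.07 FPKM. Those of Ccnd1 overlap the protein coding gene LTO1, and those of Cdkn1a overlap AC167363.2. The sources used here do not say whether the strand was used in assigning reads, so in these 3 pairs the reads of the 2 transcripts cannot be told apart. The RefSeq promoter table (GRCm38.p6, the same assembly as mm10) held 2 of the 5 genes. Their 250 bases before each transcript start are shown because Cdkn1a had a called rhythm in 6 of 7 conditions and Gadd45a, also a p53 target, in 2 of 7. Lower case letters are plain sequence, and capitals mark 2 copies of CATG, the core of the p53 motif, set 6 bases apart and the bases between them.
Cdkn1a, upstream start, chr17:29090729-29090978, plus strand: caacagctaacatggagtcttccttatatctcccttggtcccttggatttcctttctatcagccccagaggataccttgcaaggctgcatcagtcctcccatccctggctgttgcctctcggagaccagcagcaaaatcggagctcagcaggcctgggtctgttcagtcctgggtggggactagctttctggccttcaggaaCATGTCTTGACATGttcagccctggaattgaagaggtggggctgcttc
Cdkn1a, downstream start, chr17:29093519-29093768, plus strand: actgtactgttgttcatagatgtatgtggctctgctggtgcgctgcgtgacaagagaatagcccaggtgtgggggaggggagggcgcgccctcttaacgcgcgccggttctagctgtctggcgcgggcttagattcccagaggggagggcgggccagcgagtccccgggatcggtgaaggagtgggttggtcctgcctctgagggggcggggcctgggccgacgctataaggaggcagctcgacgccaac
Gadd45a, chr6:67037408-67037657, minus strand: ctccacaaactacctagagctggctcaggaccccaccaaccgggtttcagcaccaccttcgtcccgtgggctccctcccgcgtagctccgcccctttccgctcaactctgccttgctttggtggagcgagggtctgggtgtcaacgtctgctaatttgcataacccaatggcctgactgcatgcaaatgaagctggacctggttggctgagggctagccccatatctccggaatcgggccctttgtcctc
The motifs were searched on both strands, and all are described by their letters alone. The p53 pair, CATGNNNNNNCATG, chosen after the Cdkn1a sequence was seen, stood 48 to 35 bases before the upstream start of Cdkn1a and in 0.49% of all 32851 promoter windows of this length. The E-box CACGTG, found in 6.02% of windows, its variant CACGTT, found in 3.85%, and the ROR element AGGTCA, found in 4607 windows, were not in any of the 3 windows. That says only that these letters are not in these 250 bases.

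Values are FPKM (fragments per kilobase of transcript, relative to all mapped fragments), rescaled here so that typical genes had equal levels in all libraries. The scale factor was under 0.6, against a median of 1.17 over all libraries, in 14 libraries: 9 of Bmal1 knock out, 1 at ZT0 and 8 from ZT12 to ZT20, and 5 of high salt night fed, 3 at ZT8 and 2 at ZT12. A length score, which is higher where long genes read high, averaged -0.0834 ± 0.115 in Bmal1 knock out, against 0.00188 ± 0.106 in the MR knock out and 0.141 ± 0.0876 in wild type (SD, n = 18 each). Calls among the 5 genes that were lost or gained without those 14 libraries, or with that score as a term, are given with the gene. The fits without those libraries also had cosine and sine terms in place of a mean for each time. In these fits the effect of the libraries and that of the model cannot be told apart. Arntl, the gene of BMAL1, ranged from 2.87 to 6.28 FPKM in Bmal1 knock out and from 2.25 to 19.2 in wild type, while Nr3c2, the gene of MR, ranged from 1.66 to 5.33 FPKM in MR knock out and from 7.05 to 23.2 in wild type. Between knock out and wild type the ranges overlapped for Arntl and not for Nr3c2. For Nr3c2 the MR knock out range did overlap that of Bmal1 knock out, from 3.22 to 13.9 FPKM. It also overlapped that of every feeding group, such as 2.55 to 13.8 in low salt day fed and 4.05 to 12.8 in high salt day fed. Mean Nr3c2 was 3.05 FPKM in MR knock out, 6.36 in Bmal1 knock out and 15.1 in wild type. The summed FPKM of 10 colon epithelium markers was between 5482 and 16671 in every library, that of 6 smooth muscle markers at most 4.69, of 5 fibroblast markers at most 12.7, and of 8 B and T cell markers at most 18.5. The summed FPKM of 8 immediate early genes, which respond to stress and handling, had a median of 873 in Bmal1 knock out, 636 in the MR knock out and 1296 in wild type; its part in the results below was not tested. In bulk tissue, fewer cells of a type and less RNA per cell cannot be told apart.

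Cdkn1a was the most abundant of the 5, with condition means between 93.5 and 132 FPKM, followed by Ccnd1 (19.5 to 29.3) and Gadd45a (18.5 to 26.9), Myc (6.70 to 8.24) and Wee1 (2.40 to 4.25). The ranges of condition means of Ccnd1 and Gadd45a overlapped, and the others were apart. Level differences below compare the mean over the 6 times, rhythms are 24 h cosine fits, and an amplitude is how far the fitted peak lies above the daily mean in log2 units. A call is an adjusted p under 0.05 over all 11377 rows in limma, and ± is a standard error unless SD is named. Log2 differences are of FPKM plus 0.5, which understates changes of low genes such as Wee1.

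Between genotypes, Wee1 was lower in both knock outs on every scale tried, and Ccnd1 and Cdkn1a were higher in both, except that with FPKM as deposited both were lower in Bmal1 knock out. In Bmal1 knock out against wild type, 5 of 5 genes differed in level, 3 of them higher and 2 lower. Of all rows tested 80.3% differed (31.1% higher and 49.2% lower). A call was thus the rule among all rows, and the count was not tested against that share. In MR knock out against wild type 3 of 5 differed, against 66% of all rows (24.7% higher and 41.3% lower). In Bmal1 knock out against MR knock out 3 of 5 differed, 2 higher and 1 lower, against 58.5% of all rows (26.6% higher and 31.9% lower). All 3 comparisons share groups. The share of all calls that were higher in Bmal1 knock out than in wild type was 38.7%, and 3.75% with FPKM as deposited, a scale on which the median of all rows was 0.89 lower, on the log2 scale, in the knock out. Against MR knock out that share was 45.5% and, with FPKM as deposited, 1.24%. In MR knock out against wild type it was 37.5% and, with FPKM as deposited, 16.4%.

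**Figure D1:**
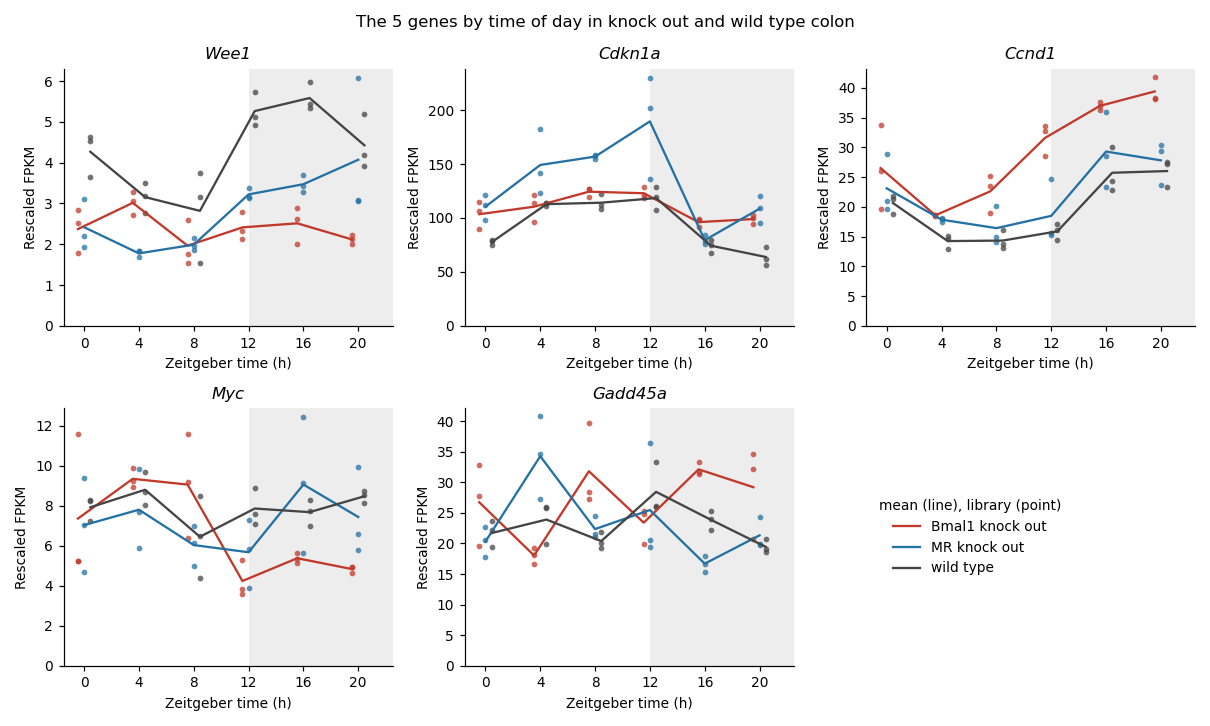
Rescaled FPKM (vertical axes, linear from 0) of each of the 5 genes against zeitgeber time in hours (horizontal axes) in Bmal1 knock out, MR knock out and wild type. Shading starts at ZT12, though the labels give no light schedule for these mice. Points are single libraries (3 per time) and lines join the means. Wee1 in both knock outs runs under wild type from ZT12 to ZT16, Ccnd1 in Bmal1 knock out climbs to a mean of 39.4 at ZT20, and Cdkn1a falls between ZT12 and ZT16 in all 3 genotypes.

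Wee1 was lower in both knock outs and had no called rhythm in Bmal1 knock out. At ZT12 its libraries read 2.12, 2.33 and 2.79 FPKM in Bmal1 knock out, 3.13, 3.16 and 3.37 in MR knock out, and 4.93, 5.13 and 5.74 in wild type. At ZT16 they read 2.01, 2.63 and 2.90 in Bmal1 knock out, 3.29, 3.44 and 3.69 in MR knock out, and 5.34, 5.44 and 5.98 in wild type. The 3 genotypes did not overlap at either hour, with wild type on top and Bmal1 knock out at the bottom. At ZT8, the low hour of wild type, the libraries read 1.54, 1.75 and 2.60 in Bmal1 knock out, 1.86, 1.96 and 2.15 in MR knock out, and 1.55, 3.17 and 3.74 in wild type. There all 3 genotypes overlapped. Averaged over the day, Wee1 was at 2.40 ± 0.49 FPKM in Bmal1 knock out and 4.25 ± 1.17 in wild type (SD, n = 18 each), a log2 difference of -0.68 ± 0.08 (adjusted p = 1.48e-09), with lower means at 6 of 6 times. In MR knock out it was at 2.83 ± 1.06 FPKM, a log2 difference from wild type of -0.53 ± 0.08 (adjusted p = 1.04e-06), again lower at 6 of 6 times. Both calls held under each of the alternatives tried; the smallest sizes, -0.245 in Bmal1 knock out and -0.255 in MR knock out, came with the length score in the fit. Bmal1 knock out and MR knock out differed by -0.16 ± 0.08 (adjusted p = 0.0899), which did not pass. With FPKM as deposited it did, at -0.70 (adjusted p = 1.52e-05). Wild type had the highest Wee1 mean of all 7 conditions. The 4 feeding groups, which carried no named allele, averaged between 2.62 and 3.11 FPKM and were not tested against the genotypes. Each genotype came as a table of its own, so genotype and table cannot be told apart.

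In Bmal1 knock out the Wee1 rhythm had an amplitude of 0.06 ± 0.08 (adjusted p = 0.801), and that of Per2, the clock repressor, was 0.03 ± 0.11 (adjusted p = 0.970). Wee1 in MR knock out had an amplitude of 0.48 ± 0.08 and a peak at ZT17.0, where Per2 peaked at ZT15.7. In wild type the amplitude was 0.41 ± 0.08 with a peak at ZT17.0, 0.455 h after the Per2 peak at ZT16.5. The rhythm difference between MR knock out and wild type did not pass (adjusted p = 0.932). With FPKM as deposited the Bmal1 knock out rhythm was called and that of wild type was not, with Wee1 amplitudes of 0.72 in Bmal1 knock out (adjusted p = 2.83e-05) and 0.42 in wild type (adjusted p = 0.207). The rhythm of Wee1 differed between Bmal1 knock out and wild type, as the distance between their 2 fitted rhythms was 0.46 ± 0.11 on the log2 scale (adjusted p = 0.00928), and between Bmal1 knock out and MR knock out at 0.53 ± 0.11 (adjusted p = 0.00142). Without the 9 low scale factor libraries of Bmal1 knock out, which cover ZT12 and ZT16 completely, the Wee1 rhythm difference from wild type was 0.81 and did not pass (adjusted p = 0.0763), and the amplitude in the knock out was 0.43 (adjusted p = 0.293). Without replicate 2 the difference was not called either (adjusted p = 0.274), and nor was that from MR knock out (adjusted p = 0.0994).

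Over the 5 genes, 4 of 5 were rhythmic in Bmal1 knock out, all but Wee1, against 56.7% of all rows. In MR knock out 4 of 5 were rhythmic, all but Myc, against 21.7% of all rows, and in wild type 3 of 5, Wee1, Cdkn1a and Ccnd1, against 17.7% of all rows. Between MR knock out and wild type 0 of 5 differed in rhythm, against 0.835% of all rows by limma. In limma Gadd45a was the one gene with an unadjusted p under 0.05 (0.00789; adjusted p = 0.224). Bmal1 knock out differed in rhythm from wild type in 3 of 5, Wee1, Cdkn1a and Myc, against 31.2% of all rows, and from MR knock out in 4 of 5, all but Ccnd1, against 56.4% of all rows. These shares of all rows are from the fit on the rescaled values of all libraries. The counts that follow are from other fits. They have no share of all rows beside them, so they do not set the 5 genes apart. With the low scale factor libraries left out 0 of 5 differed in rhythm from wild type and 2 of 5 from MR knock out. With the length score Myc no longer differed by the test from wild type, and 2 of 5, Wee1 and Gadd45a, differed from MR knock out. Quantile normalization also called 4 of 5 against MR knock out, but not the same 4. There Cdkn1a was lost (0.09, adjusted p = 0.478) and Ccnd1 was gained (0.27, adjusted p = 0.0448).

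Cdkn1a was higher in both knock outs, except that it was lower in Bmal1 knock out with FPKM as deposited, and its rhythm amplitude was lowest in Bmal1 knock out. At ZT12 its libraries read 118.3, 121.5 and 128.9 FPKM in Bmal1 knock out, 136.4, 202.3 and 229.8 in MR knock out, and 107.4, 119.2 and 128.7 in wild type. At ZT16 they read 91.3, 98.1 and 98.9 in Bmal1 knock out, 75.6, 78.3 and 84.2 in MR knock out, and 67.9, 75.4 and 79.6 in wild type. MR knock out lay above wild type without overlap at ZT12 and overlapped it at ZT16, while Bmal1 knock out did the reverse. Over the day Cdkn1a averaged 132.3 ± 42.8 FPKM in MR knock out and 93.5 ± 23.4 in wild type (SD, n = 18 each), a log2 difference of 0.47 ± 0.05 (adjusted p = 3.32e-09), higher at 6 of 6 times and called under every alternative tried. In Bmal1 knock out it averaged 109.4 ± 13.3 FPKM, 0.26 ± 0.05 above wild type on the log2 scale (adjusted p = 4.42e-05) at 5 of 6 times. That call ended with quantile normalization at 0.06, with the length score at 0.11 and without the low scale factor libraries at 0.27, and it turned to -0.64 with FPKM as deposited. Cdkn1a was lower in Bmal1 knock out than in MR knock out by 0.22 ± 0.05 on the log2 scale (adjusted p = 0.000922), a call that ended without the low scale factor libraries (adjusted p = 0.254) and without replicate 1 (adjusted p = 0.0519).

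The Cdkn1a rhythm of Bmal1 knock out had an amplitude of 0.18 ± 0.05 with a peak at ZT8.36 (adjusted p = 0.0142). That of MR knock out had 0.45 ± 0.05 at ZT7.66, and that of wild type 0.48 ± 0.05 at ZT8.01, which was 8.49 h before Per2. The rhythm difference between Bmal1 knock out and wild type was 0.30 ± 0.08 (adjusted p = 0.0120). It was not called without the low scale factor libraries, at 0.31 (adjusted p = 0.251), nor without replicate 1 or without replicate 2, where the highest adjusted p was 0.239. The Bmal1 knock out rhythm itself was not called without the low scale factor libraries (adjusted p = 0.385), without replicate 1 or without replicate 2. That of MR knock out was not called with FPKM as deposited, at 0.26 (adjusted p = 0.148). From MR knock out the Bmal1 knock out rhythm differed by 0.27 ± 0.08 (adjusted p = 0.0112). That call ended with quantile normalization, with the length score at 0.16 (adjusted p = 0.226), without the low scale factor libraries at 0.29 (adjusted p = 0.256) and without replicate 2 (adjusted p = 0.217).

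Ccnd1 was highest in Bmal1 knock out, except with FPKM as deposited, where it was lower there than in either other genotype. At ZT20 its libraries read 38.1, 38.3 and 41.8 FPKM in Bmal1 knock out, 23.7, 29.4 and 30.4 in MR knock out, and 23.4, 27.1 and 27.6 in wild type. At ZT4 they read 18.5, 18.6 and 18.7 in Bmal1 knock out, 17.5, 18.02 and 18.1 in MR knock out, and 12.9, 14.7 and 15.2 in wild type. Bmal1 knock out was above both other genotypes without overlap at these hours, and MR knock out overlapped wild type at ZT20 but not at ZT4. Over the day Ccnd1 averaged 29.3 ± 8.22 FPKM in Bmal1 knock out, 22.2 ± 6.33 in the MR knock out and 19.5 ± 5.46 in wild type (SD, n = 18 each). Bmal1 knock out exceeded wild type by 0.57 ± 0.07 on the log2 scale (adjusted p = 2.16e-09) at 6 of 6 times, and by 0.67 without the low scale factor libraries, but the difference was -0.31 with FPKM as deposited. It exceeded MR knock out by 0.39 ± 0.07 (adjusted p = 8.02e-06), which was -0.32 with FPKM as deposited. MR knock out exceeded wild type by 0.18 ± 0.07 (adjusted p = 0.0200) at 6 of 6 times, a call that ended with FPKM as deposited at 0.01, with the length score at 0.10, without replicate 1 and without replicate 2.

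The Ccnd1 rhythm was called in all 3 genotypes under every alternative tried, while whether it differed between them depended on the scaling. The amplitude was 0.53 ± 0.07 with a peak at ZT17.1 in Bmal1 knock out, 0.43 ± 0.07 at ZT19.1 in the MR knock out and 0.50 ± 0.07 at ZT19.0 in wild type. On the rescaled values no rhythm difference between genotypes passed for Ccnd1. The nearest was Bmal1 knock out against MR knock out at 0.26 ± 0.10 (adjusted p = 0.0560). It was called in 7 of 36 fits that leave out 1 library, with quantile normalization at 0.27 (adjusted p = 0.0448) and with FPKM as deposited at 0.87 (adjusted p = 4.92e-06). Bmal1 knock out against wild type was at 0.25 ± 0.10 (adjusted p = 0.102). It was called with FPKM as deposited, at 0.70 (adjusted p = 0.000311). The peak in Bmal1 knock out was 1.87 h before that of wild type.

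Myc differed from wild type in Bmal1 knock out, and the low values lay at the hours where the scale factors were low. From ZT12 to ZT20 its Bmal1 knock out libraries lay between 3.60 and 5.65 FPKM. At ZT12 they read 3.60, 3.83 and 5.28 in Bmal1 knock out, 3.90, 5.85 and 7.26 in MR knock out, and 7.10, 7.57 and 8.89 in wild type. At ZT4 they read 8.91, 9.23 and 9.87 in Bmal1 knock out, 5.90, 7.67 and 9.82 in MR knock out, and 8.04, 8.67 and 9.66 in wild type. Bmal1 knock out was below wild type without overlap at ZT12 and overlapped it at ZT4. Over the day Myc averaged 6.70 ± 2.60 FPKM in Bmal1 knock out, 7.17 ± 2.19 in the MR knock out and 7.86 ± 1.16 in wild type (SD, n = 18 each). The difference of Bmal1 knock out from wild type was -0.28 ± 0.10 on the log2 scale (adjusted p = 0.0137), lower at 4 of 6 times. It was not called with quantile normalization (-0.10), without the low scale factor libraries (-0.20), without replicate 1 or without replicate 2, and it was 0.18 with the length score in the fit. The Myc rhythm had an amplitude of 0.49 ± 0.10 with a peak at ZT4.34 in Bmal1 knock out (adjusted p = 0.000771) and was not called in MR knock out (adjusted p = 0.438) or wild type (adjusted p = 0.712). Without the low scale factor libraries that amplitude was 0.50 and not called (adjusted p = 0.198). The rhythm of Myc in Bmal1 knock out differed from that in wild type by 0.52 ± 0.15 (adjusted p = 0.0224) and from that in MR knock out by 0.58 ± 0.15 (adjusted p = 0.00585). The first call ended with the length score at 0.31 (adjusted p = 0.113) and without the low scale factor libraries at 0.55 (adjusted p = 0.193). The second ended with the length score at 0.26 (adjusted p = 0.266) and without those libraries at 0.60 (adjusted p = 0.0934). Both ended without replicate 2 and without replicate 3. With FPKM as deposited the Myc level was lower in Bmal1 knock out than in MR knock out by 0.74 on the log2 scale (adjusted p = 0.000370). The rescaled difference of -0.12 ± 0.10 did not pass (adjusted p = 0.326).

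Gadd45a was higher in Bmal1 knock out than in either other genotype, except with FPKM as deposited, where it was lower, and with the length score, where it did not differ by the test from either. At ZT16 its libraries read 31.3, 31.7 and 33.4 FPKM in Bmal1 knock out, 15.4, 16.7 and 17.99 in MR knock out, and 22.3, 24.02 and 25.3 in wild type. At ZT4 they read 16.7, 18.1 and 19.3 in Bmal1 knock out, 27.3, 34.7 and 40.8 in MR knock out, and 19.9, 25.8 and 26.0 in wild type. The order of the genotypes thus turned round between these hours, without overlap at either. Over the day Gadd45a averaged 26.9 ± 6.69 FPKM in Bmal1 knock out, 23.4 ± 7.10 in the MR knock out and 23.0 ± 3.73 in wild type (SD, n = 18 each). The log2 difference of Bmal1 knock out from wild type was 0.20 ± 0.08 (adjusted p = 0.0177) at 4 of 6 times, which ended without replicate 1, without replicate 2 and with the length score, where it was -0.02, and was -0.68 with FPKM as deposited and 0.59 without the low scale factor libraries. Bmal1 knock out exceeded MR knock out by 0.21 ± 0.08 (adjusted p = 0.0198), a call that ended with the length score at 0.12 and without replicate 2, and was -0.50 with FPKM as deposited. The MR knock out rhythm had an amplitude of 0.32 ± 0.08 with a peak at ZT5.19 (adjusted p = 0.00872), and that of Bmal1 knock out 0.22 ± 0.08 at ZT16.2 (adjusted p = 0.0383). The first was not called with FPKM as deposited at 0.09, without replicate 2 or without replicate 3. The second was not called with the length score at 0.14 (adjusted p = 0.254), with no filter on low values (adjusted p = 0.0583), without replicate 1, without replicate 2 or in 12 of 18 fits that leave out 1 library. These 2 rhythms differed by 0.53 ± 0.11 (adjusted p = 0.000833), a call that ended without replicate 2 (adjusted p = 0.0701). Bmal1 knock out and wild type differed in Gadd45a rhythm by 0.22 ± 0.11 (adjusted p = 0.230). This passed with FPKM as deposited at 0.66 (adjusted p = 0.00279) and without replicate 3 (adjusted p = 0.0488).

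**Figure D2:**
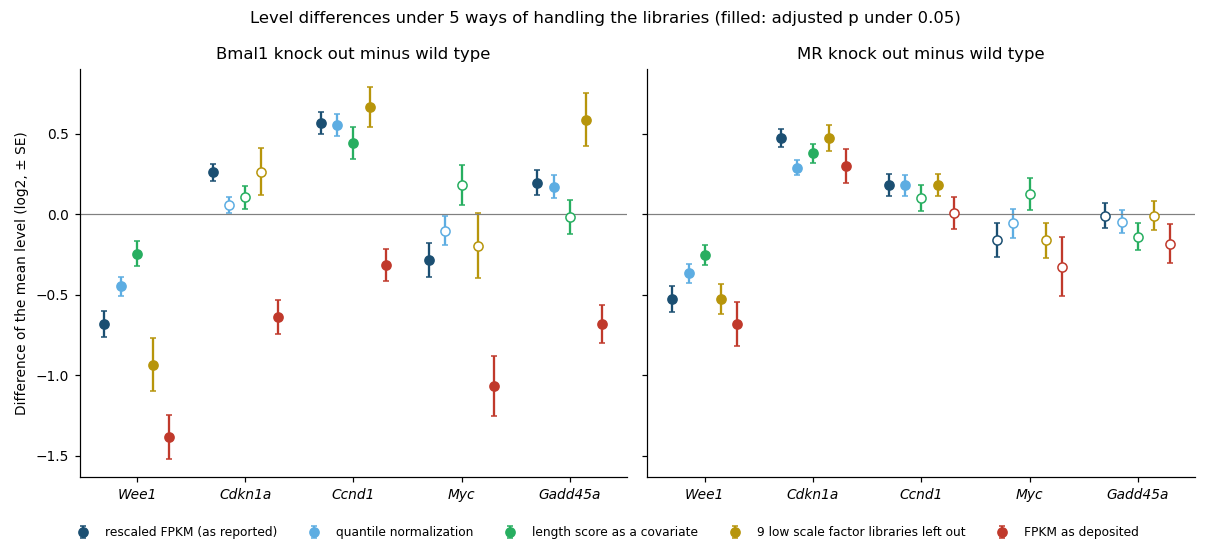
Log2 difference of the mean level over the day (vertical axis, bars are standard errors) of each gene in Bmal1 knock out minus wild type and in MR knock out minus wild type under 5 ways of handling the libraries; filled points have an adjusted p under 0.05. Wee1 stays below 0 under all 5 in both panels, from -1.38 to -0.25 in Bmal1 knock out, while FPKM as deposited turns Cdkn1a, Ccnd1 and Gadd45a below 0 in Bmal1 knock out.

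In the feeding experiment the Wee1 peak of day fed mice lay about opposite to that of night fed mice under both salts. In low salt day fed against low salt night fed 0 of 5 genes differed in level by limma, against 3.33% of all rows (2.29% lower). In limma Cdkn1a was the one gene with an unadjusted p under 0.05 (0.0269; adjusted p = 0.211). In high salt day fed against high salt night fed 1 of 5 did, Gadd45a, against 27.6% of all rows. In high salt night fed against low salt night fed 1 of 5 did, Ccnd1, against 35% of all rows (15.4% higher and 19.6% lower), and in high salt day fed against low salt day fed again 1 of 5, Ccnd1, against 14.8% of all rows (7.79% higher). Rhythms were called for 2 of 5 genes in high salt day fed (31.6% of all rows), 3 of 5 in high salt night fed (57% of all rows), 1 of 5 in low salt day fed (42.2% of all rows) and 3 of 5 in low salt night fed (22.6% of all rows). In rhythm, 3 of 5 differed between low salt day fed and low salt night fed, against 38.6% of all rows, and 3 of 5 between high salt day fed and high salt night fed, against 32.5% of all rows. Between high salt night fed and low salt night fed 1 of 5 differed in rhythm, against 12.3% of all rows, and between high salt day fed and low salt day fed 1 of 5, against 11.3% of all rows. With FPKM as deposited, high salt day fed and high salt night fed differed in level for 5 of 5 and in rhythm for 5 of 5. In level, 9932 of all 11377 rows were higher and 52 lower there. On that scale high salt night fed and low salt night fed differed in level for 4 of 5 and in rhythm for 5 of 5. In level, 72 of all rows were higher and 9916 lower in that pair, so these counts do not set the 5 genes apart.

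**Figure D3:**
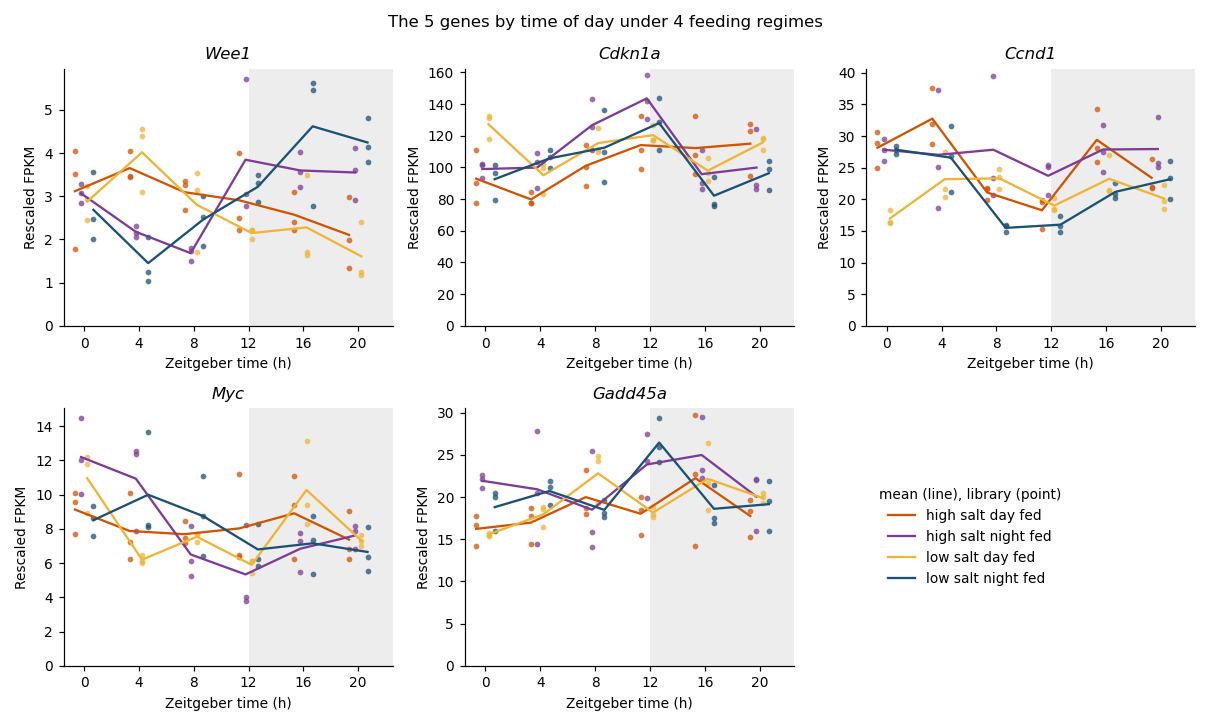
Rescaled FPKM (vertical axes, linear from 0) of each of the 5 genes against zeitgeber time in hours (horizontal axes, dark phase shaded) in high salt day fed, high salt night fed, low salt day fed and low salt night fed colon; points are single libraries (3 per time) and lines join the means. The day fed and night fed lines of Wee1 cross, with day fed means of 3.65 and 4.02 at ZT4 and night fed means of 3.60 and 4.62 at ZT16.

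Under low salt, Wee1 at ZT4 read 3.11, 4.40 and 4.55 FPKM in day fed and 1.04, 1.25 and 2.06 in night fed mice. At ZT20 it read 1.19, 1.24 and 2.40 in day fed and 3.79, 4.14 and 4.80 in night fed mice. Neither hour showed overlap, and the 2 groups had changed places between them. Under high salt, Wee1 at ZT4 read 3.44, 3.48 and 4.04 in day fed and 2.07, 2.15 and 2.31 in night fed mice, without overlap. At ZT16 it read 2.22, 2.41 and 3.09 in day fed and 3.21, 3.55 and 4.03 in night fed mice, again without overlap and in the opposite order. The fitted Wee1 peak was at ZT4.79 in low salt day fed (amplitude 0.42 ± 0.11) and ZT16.8 in low salt night fed (0.63 ± 0.11), a shift of 12.0 h. The rhythm difference was 1.05 ± 0.15 (adjusted p = 2.55e-06). Under high salt the fitted peak was at ZT5.87 in day fed, where the rhythm itself did not pass (0.27 ± 0.11, adjusted p = 0.0949), and at ZT17.7 in night fed (0.43 ± 0.11), and the rhythm difference was 0.71 ± 0.15 (adjusted p = 0.00107). Both rhythm differences were called under every alternative tried. The high salt day fed rhythm alone was called with FPKM as deposited (0.43, adjusted p = 0.0370), with quantile normalization (0.26, adjusted p = 0.0399) and with the length score (0.25, adjusted p = 0.0288). The call for low salt day fed alone ended without replicate 1 (adjusted p = 0.122), with FPKM as deposited (amplitude 0.35) and with the length score (amplitude 0.12), and that for high salt night fed alone ended without the low scale factor libraries (0.32, adjusted p = 0.155). Between high salt night fed and low salt night fed mice Wee1 did not differ by the test in rhythm (0.23 ± 0.15, adjusted p = 0.534), but with FPKM as deposited it did (0.64, adjusted p = 0.0111).

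Per2 moved alongside. It peaked at ZT6.86 in low salt day fed and ZT17.0 in low salt night fed, and at ZT4.59 in high salt day fed and ZT17.3 in high salt night fed. The Wee1 peak was 1.28 h after that of Per2 in high salt day fed, 0.404 h after it in high salt night fed, 2.07 h before it in low salt day fed and 0.173 h before it in low salt night fed. Wee1 and Per2 thus lay within 2.07 h of each other in the 6 conditions other than Bmal1 knock out. The other clock markers did not all move alike: Nr1d1, a repressor of Bmal1, peaked at ZT15.7 in high salt day fed, ZT9.46 in high salt night fed, ZT23.8 in low salt day fed and ZT9.59 in low salt night fed, and Dbp, a clock output factor, peaked at ZT9.72, ZT12.3, ZT2.69 and ZT12.3 in the same order. Cdk1, the kinase that WEE1 inhibits, was looked at after its values were seen. Its peak was at ZT17.8 in high salt day fed, ZT2.07 in high salt night fed, ZT19.2 in low salt day fed and ZT1.80 in low salt night fed. In the genotypes it was at ZT2.41 in Bmal1 knock out, ZT23.0 in MR knock out and ZT3.45 in wild type. A fitted peak exists even where no rhythm is called. The peak times of Nr1d1, Dbp and Cdk1 are given here without amplitude or test, and their relation to Wee1 was not tested.

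**Figure D4:**
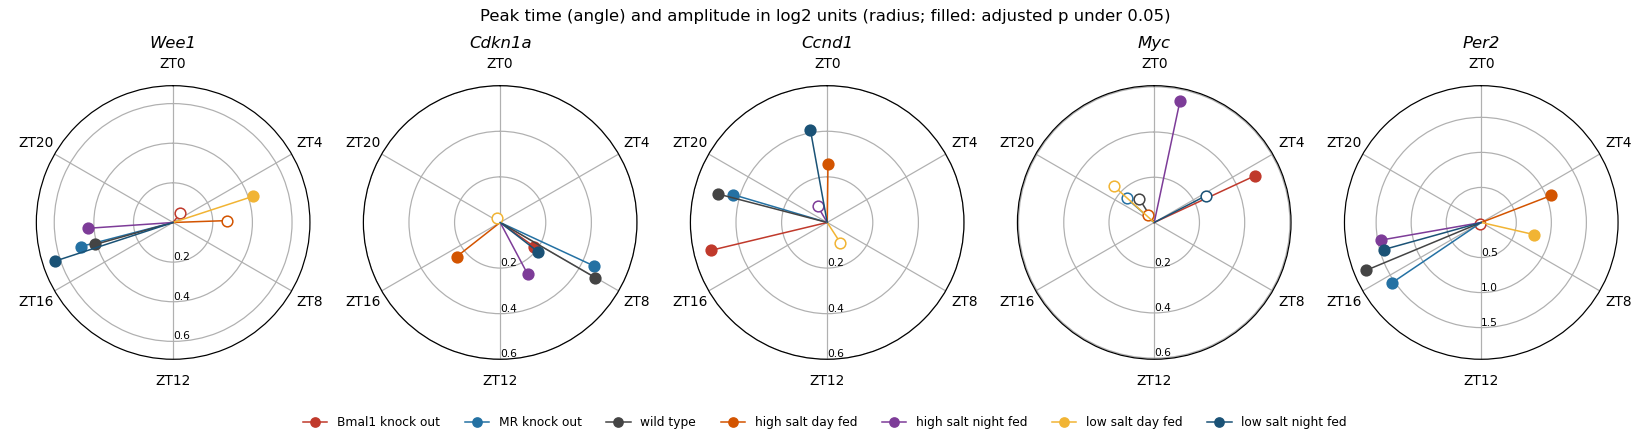
Fitted rhythms of Wee1, Cdkn1a, Ccnd1, Myc and, for comparison, the clock gene Per2 in the 7 conditions; the angle is the peak time (ZT0 at the top, hours clockwise) and the radius the amplitude in log2 units, on its own scale for each gene. Filled points have an adjusted p under 0.05. Wee1 and Per2 point between ZT15.7 and ZT17.7 in MR knock out, wild type and both night fed groups, and between ZT4.59 and ZT6.86 in both day fed groups.

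Cdkn1a did not follow food in that way. At ZT4 it read 77.3, 77.5 and 84.6 FPKM in high salt day fed and 87.0, 103.5 and 109.2 in high salt night fed mice. At ZT4 under low salt it read 83.3, 99.5 and 102.4 in day fed and 99.4, 106.7 and 111.0 in night fed mice. The groups stood apart at that hour under high salt and overlapped under low salt. The Cdkn1a rhythm of night fed mice peaked in the light phase, at ZT10.1 under high salt (amplitude 0.26 ± 0.06, adjusted p = 0.00122) and ZT8.51 under low salt (0.21 ± 0.06, adjusted p = 0.0215). In wild type the peak was at ZT8.01. The low salt rhythm was not called in the fit without the low scale factor libraries (0.21, adjusted p = 0.0632), though no low salt library was among them. It was also not called with FPKM as deposited (0.19, adjusted p = 0.0885) or when any 1 replicate number was left out. In day fed mice it was at ZT15.5 under high salt (0.24 ± 0.06, adjusted p = 0.00673) and was not called under low salt (0.02 ± 0.06, adjusted p = 0.933). The difference of rhythms between day fed and night fed mice passed under high salt (0.32 ± 0.08, adjusted p = 0.00869) and not under low salt (0.23 ± 0.08, adjusted p = 0.0605). The low salt difference passed with FPKM as deposited (0.29, adjusted p = 0.0385). The rhythm interaction between feeding time and salt did not pass for Cdkn1a (adjusted p = 0.666). It passed with FPKM as deposited (0.64, adjusted p = 0.000181). High salt day fed and low salt day fed mice differed in Cdkn1a rhythm by 0.24 ± 0.08 (adjusted p = 0.108). This passed with quantile normalization (0.26, adjusted p = 0.0246) and with the length score (0.28, adjusted p = 0.00678). The 2 groups differed in Cdkn1a level by -0.14 ± 0.06 on the log2 scale (adjusted p = 0.103), and that difference passed with quantile normalization (-0.16), with the length score (-0.13) and with FPKM as deposited (-0.19). Without the low scale factor libraries the high salt rhythm difference was 0.26 (adjusted p = 0.201) and the high salt night fed amplitude 0.12 (adjusted p = 0.714), and neither was called. The high salt day fed rhythm was not called with FPKM as deposited (0.04), with the length score (0.16) or without replicate 1. In level, the feeding effect (day minus night) of Cdkn1a differed between salts by -0.24 ± 0.08 on the log2 scale (adjusted p = 0.0343), high salt minus low salt, the 1 of 5 genes to do so, against 19.7% of all rows (8.75% lower). That call ended without the low scale factor libraries (-0.16), with the length score and without any 1 replicate number, and the value was 0.20 with FPKM as deposited.

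Ccnd1 was higher under high salt at both feeding times, except by night with FPKM as deposited, and its rhythm interaction between salt and feeding time passed. At ZT8 it read 20.6, 23.4 and 39.4 FPKM in high salt night fed and 14.8, 15.8 and 15.9 in low salt night fed mice, without overlap. All 3 of these high salt libraries had a low scale factor. At ZT4 it read 18.6, 25.1 and 37.3 in high salt night fed and 21.2, 26.9 and 31.7 in low salt night fed mice, with overlap. At ZT0 it read 25.0, 28.9 and 30.6 in high salt day fed and 16.2, 16.5 and 18.2 in low salt day fed mice, also without overlap. Over the day Ccnd1 averaged 27.04 ± 5.50 FPKM in high salt night fed and 21.7 ± 5.35 in low salt night fed mice (SD, n = 18 each), a log2 difference of 0.32 ± 0.07 (adjusted p = 0.000284), higher at 4 of 6 times. By day it averaged 25.5 ± 5.82 in high salt fed and 21.0 ± 3.20 in low salt fed mice, a log2 difference of 0.26 ± 0.07 (adjusted p = 0.00658), also higher at 4 of 6 times. The night value was -0.16 with FPKM as deposited. The day value was not called on that scale, at 0.21, nor without replicate 2 (adjusted p = 0.115), and both were called without the low scale factor libraries, the night value at 0.28 (adjusted p = 0.0426). The fitted peak of Ccnd1 was at ZT0.05 in high salt day fed (amplitude 0.25 ± 0.07) and at ZT23.3 in low salt night fed mice (0.41 ± 0.07), while high salt night fed (0.08 ± 0.07, adjusted p = 0.552) and low salt day fed (0.11 ± 0.07, adjusted p = 0.382) had no called rhythm. That of high salt night fed was called with FPKM as deposited (0.74) and in at least 1 fit that leaves out a replicate number or a library. That of high salt day fed was not called without replicate 1 (adjusted p = 0.461). The rhythm interaction between salt and feeding time passed (0.68 ± 0.14, adjusted p = 0.00392), where 6.21% of all rows and 1 of 5 genes did. It was not called without the low scale factor libraries, at 0.62 (adjusted p = 0.131), with FPKM as deposited, at 0.51 (adjusted p = 0.0506), or without replicate 2 (adjusted p = 0.0926). Of the single comparisons, low salt day fed against low salt night fed passed (0.51 ± 0.10, adjusted p = 0.000330) under every alternative tried. High salt against low salt passed more narrowly, by night at 0.34 ± 0.10 (adjusted p = 0.0418) and by day at 0.35 ± 0.10 (adjusted p = 0.0343). These calls were lost in 17 of 36 and 7 of 36 fits that leave out 1 library. Both were also lost in the fit without the low scale factor libraries, though no day fed library was among them. The night call also ended with quantile normalization (0.30, adjusted p = 0.0780) and with no filter on low values (adjusted p = 0.0627). High salt day fed against high salt night fed was not called in rhythm (0.19 ± 0.10, adjusted p = 0.263), except with FPKM as deposited (0.56).

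Myc had its clearest feeding rhythm in high salt night fed mice. There it read 10.1, 12.0 and 14.5 FPKM at ZT0 and 3.77, 4.02 and 8.23 at ZT12, and its amplitude was 0.55 ± 0.09 with a peak at ZT0.80 (adjusted p = 2.40e-05). High salt day fed mice read 7.71, 9.58 and 10.1 at ZT0 and 6.37, 6.49 and 11.2 at ZT12, so the hours overlapped, and the amplitude was 0.04 ± 0.09 (adjusted p = 0.928). The rhythm difference between high salt day fed and night fed mice was 0.52 ± 0.13 (adjusted p = 0.00751), and it was not called without the low scale factor libraries (0.38), without replicate 2 or without replicate 3. Without those libraries, of which 2 were at ZT12, the Myc rhythm of high salt night fed mice was 0.38 and still called (adjusted p = 0.0425). Low salt day fed and night fed mice differed in Myc rhythm at 0.41 ± 0.13 (adjusted p = 0.0397), a call lost when any 1 replicate number was left out, with FPKM as deposited (adjusted p = 0.160) and with no filter on low values (adjusted p = 0.0613). Neither of these groups had a called Myc rhythm of its own. With the length score both did, at 0.40 in low salt day fed (adjusted p = 0.00125) and 0.31 in low salt night fed mice (adjusted p = 0.00376). Quantile normalization called that of low salt day fed mice (0.27, adjusted p = 0.0313). High salt night fed and low salt night fed mice differed in Myc rhythm by 0.43 ± 0.13 (adjusted p = 0.0606). This passed with quantile normalization (adjusted p = 0.0376), with the length score (0.34, adjusted p = 0.0498) and with FPKM as deposited (1.02). High salt day fed and low salt day fed mice differed by 0.20 ± 0.13 (adjusted p = 0.536), and this passed with the length score (0.34, adjusted p = 0.0410). The Myc rhythm interaction between salt and feeding time was 0.61 ± 0.19 (adjusted p = 0.0877). It passed under the same 3 alternatives as the night comparison, with adjusted p of 0.0398 by quantile normalization, 0.00491 with the length score and 0.00113 with FPKM as deposited. No level difference of Myc passed between feeding groups, except with FPKM as deposited. On that scale it was 0.45 in high salt day fed minus high salt night fed mice, and the value was -0.45 for high salt night fed minus low salt night fed.

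On the rescaled values of all libraries, Gadd45a had no called rhythm in any feeding group and no called rhythm difference. Its high salt night fed rhythm was called with FPKM as deposited (0.67). It was also called in at least 1 fit that leaves out a replicate number or a library. Rhythm differences of Gadd45a called with FPKM as deposited were high salt day fed from night fed (0.73) and high salt from low salt night fed (0.78). Its level was lower in high salt day fed mice, at 18.5 ± 3.81 FPKM, than in high salt night fed mice, at 21.7 ± 4.46 (SD, n = 18 each), by 0.22 ± 0.08 on the log2 scale (adjusted p = 0.0286) at 5 of 6 times. At ZT0 the libraries read 14.3, 16.6 and 17.8 in high salt day fed and 21.0, 22.1 and 22.7 in high salt night fed mice, without overlap. At ZT16 they read 14.3, 22.7 and 29.7 in day fed and 22.3, 23.2 and 29.5 in night fed mice, with overlap. The call ended without the low scale factor libraries (adjusted p = 0.125), with the length score (-0.15), without replicate 1, without replicate 3 and in 9 of 36 fits that leave out 1 library, and the difference was 0.22 with FPKM as deposited.

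**Figure D5:**
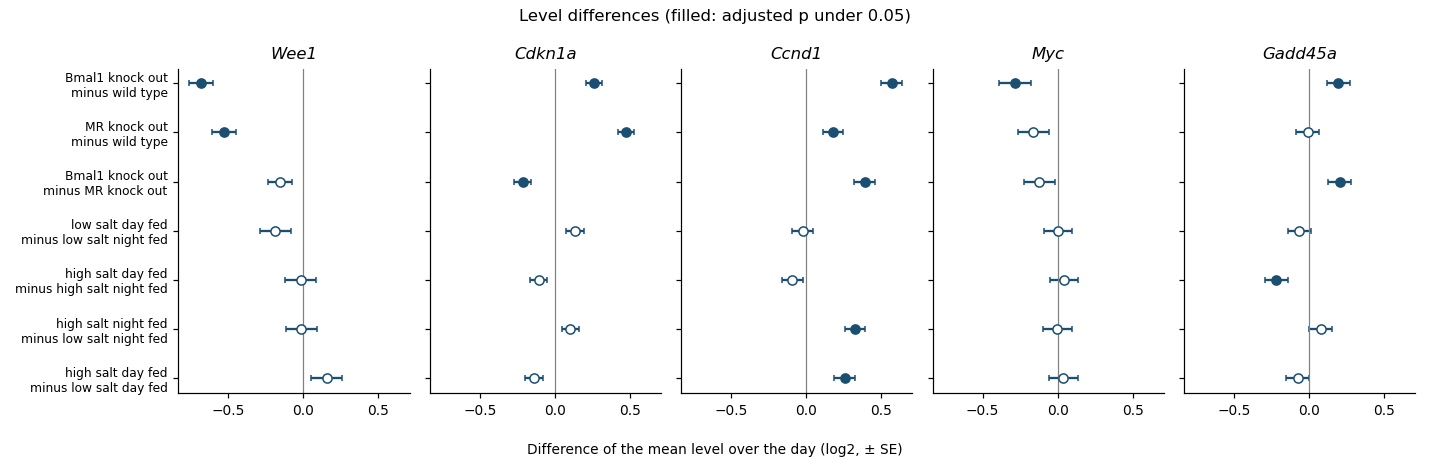
Log2 difference of the mean level over the day (horizontal axes, bars are standard errors) for each of the 5 genes in 7 comparisons of 18 against 18 libraries, first named group minus second; filled points have an adjusted p under 0.05. The largest differences are those of Wee1 (-0.68 and -0.53) and of Ccnd1 (0.57) and Cdkn1a (0.47) in the knock outs, and Ccnd1 is above 0 in both high salt minus low salt comparisons, though not by night with FPKM as deposited (-0.16).

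Across conditions, Wee1 ranked highest in wild type (4.25 ± 1.17 FPKM), then low salt night fed (3.11 ± 1.31), high salt night fed (2.99 ± 1.03), high salt day fed (2.91 ± 0.81), MR knock out (2.83 ± 1.06), low salt day fed (2.62 ± 0.99) and Bmal1 knock out (2.40 ± 0.49; SD, n = 18 each), with every neighbouring pair closer than the SD of the higher of the 2. Cdkn1a ranked highest in MR knock out (132.3 ± 42.8) and lowest in wild type (93.5 ± 23.4). Ccnd1 was highest in Bmal1 knock out (29.3 ± 8.22) and lowest in wild type (19.5 ± 5.46). Myc was highest in high salt night fed (8.24 ± 3.02) and lowest in Bmal1 knock out (6.70 ± 2.60), and Gadd45a was highest in Bmal1 knock out (26.9 ± 6.69) and lowest in high salt day fed (18.5 ± 3.81). Genes alike in time were found by the correlation over 42 means (7 conditions by 6 times), each centred on its condition, among 10726 rows. These means share libraries between genes, so the values are descriptions. Nearest to Wee1 were Acsl1 (r = 0.86), Per2 (r = 0.85) and Pdxk (r = 0.84). Nearest to Cdkn1a were Ptprr (r = 0.88), Fibp and Tmem246 (both r = 0.86), and nearest to Ccnd1 were Rangap1 (r = 0.86), Usp10 and Crybg3 (both r = 0.83). Nearest to Myc were Frmd4b (r = 0.80), Tbccd1 (r = 0.76) and Slc35f2 (r = 0.76). Nearest to Gadd45a were Thy1 (r = 0.73), Cd3g (r = 0.72) and Cd3d (r = 0.71), all markers of T cells. Cd3g averaged 2.49 ± 1.603 FPKM in Bmal1 knock out, 3.64 ± 3.23 in the MR knock out and 1.602 ± 0.43 in wild type (SD, n = 18 each), and the 8 B and T cell markers summed to 1.43 to 10.9 FPKM in Bmal1 knock out, 1.34 to 18.5 in MR knock out and 1.68 to 5.60 in wild type; their part in the Gadd45a values was not tested. Among the 5 genes themselves the strongest relation was that of Cdkn1a and Ccnd1 (r = -0.72), and the other 9 pairs lay between -0.38 and 0.37.

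The neighbours of the 5 genes in their pathways were counted from lists that leave the 5 genes out. Over all rows 31.1% were higher and 49.2% lower in Bmal1 knock out than in wild type, and 24.7% higher and 41.3% lower in MR knock out than in wild type. The counts below are descriptions, and none was tested for a difference from all rows. Those shares stand beside counts on the rescaled values only. Other fits had their own totals of the 11377 rows against wild type. FPKM as deposited had 389 higher and 9994 lower for the Bmal1 line, and 914 higher and 4643 lower for the MR line. The length score had 2131 higher and 2061 lower for the Bmal1 line, and 2110 higher and 2190 lower for the MR line. Quantile normalization had 4290 higher and 4726 lower for the Bmal1 line. Of 5 other inhibitors of cyclin-dependent kinases, 3 were higher and 1 lower in Bmal1 knock out than in wild type, and 0 higher and 5 lower with FPKM as deposited. Of the same 5, MR knock out had 4 higher and 1 lower, and 2 higher and 1 lower with FPKM as deposited. The lower one in both was Cdkn1b, which encodes p27, at -0.39 ± 0.06 in Bmal1 knock out and -0.38 ± 0.06 in MR knock out on the log2 scale (adjusted p = 6.17e-07 and 3.24e-06). Cdkn2d, which encodes p19, was higher in Bmal1 knock out by 0.49 ± 0.07, and Cdkn2b, which encodes p15, was higher in MR knock out by 0.47 ± 0.08. Of 12 G1 cyclins, kinases and E2F and RB genes, 3 were higher and 8 lower in Bmal1 knock out, and 4 higher and 1 lower with the length score. In MR knock out 3 were higher and 5 lower, and 5 higher and 2 lower with the length score. E2f2, an activator of S phase genes, was higher by 1.04 ± 0.05 in Bmal1 knock out and by 0.48 ± 0.05 in MR knock out, and Ccnd2, the cyclin D2 gene, was lower in MR knock out at -0.70 ± 0.11. Of 13 genes of G2 and mitotic entry, 8 were higher and 2 lower in Bmal1 knock out, where with FPKM as deposited 0 were higher and 12 lower. In MR knock out 7 were higher and 1 lower, and on that scale 0 were higher and 1 lower. Cdk1 was among them, at 9.49 ± 3.12 FPKM in Bmal1 knock out and 6.48 ± 2.04 in wild type (SD, n = 18 each), a log2 difference of 0.51 ± 0.07.

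Of 13 p53 targets, 2 were higher and 7 lower in Bmal1 knock out, with 6 higher and 6 lower after quantile normalization, and 2 were higher and 6 lower in MR knock out. Sesn2, a stress sensor that restrains growth, was lower in Bmal1 knock out at -1.28 ± 0.12, and Btg2, an inhibitor of proliferation, in MR knock out at -1.04 ± 0.15. Of 5 relatives and partners of Gadd45a, 2 were higher and 2 lower in Bmal1 knock out, with a median log2 difference of -0.13. Gadd45g, a paralog of Gadd45a among them, was at 35.8 ± 13.7 FPKM in Bmal1 knock out, 31.2 ± 14.9 in the MR knock out and 9.32 ± 4.28 in wild type (SD, n = 18 each). It was higher than wild type by 1.90 ± 0.21 and by 1.58 ± 0.21 on the log2 scale (adjusted p = 3.36e-10 and 6.84e-08). Of 9 other MYC network genes, 1 was higher and 7 lower in Bmal1 knock out, with 1 higher and 2 lower under the length score, and 3 were higher and 4 lower in MR knock out, with 3 higher and 0 lower under the length score. Max, the partner of MYC, was lower in Bmal1 knock out at -0.50 ± 0.06, and Mxd1, an antagonist of MYC, was higher in MR knock out by 0.87 ± 0.08. Of 10 MYC targets, 7 were higher and 2 lower in Bmal1 knock out, with 0 higher and 9 lower on the scale of FPKM as deposited, and 3 were higher and 2 lower in MR knock out, with 1 higher and 2 lower on that scale. Of 9 WNT targets of the crypt, 1 was higher and 7 lower in each knock out, with 1 higher and 3 lower under the length score in Bmal1 knock out and 0 higher and 5 lower in MR knock out. Lgr5, the stem cell marker, was at 0.60 ± 0.25 FPKM in Bmal1 knock out, 0.76 ± 0.31 in the MR knock out and 1.89 ± 0.51 in wild type (SD, n = 18 each). The median log2 difference over all rows was -0.13 in Bmal1 knock out and -0.08 in MR knock out, and the medians of these lists in Bmal1 knock out lay between -0.54 for the WNT targets and 0.30 for the MYC targets.

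Of the 13 genes of G2 and mitotic entry, 12 were rhythmic in Bmal1 knock out, where 56.7% of all rows were, 11 in the MR knock out (21.7% of all rows) and 12 in wild type (17.7% of all rows). Their rhythms differed in 10 of 13 cases between high salt day fed and high salt night fed mice (32.5% of all rows) and in 10 of 13 between low salt day fed and low salt night fed mice (38.6% of all rows). Low scale factors fell at certain hours, with 3 such libraries at ZT12, 3 at ZT16 and 2 at ZT20 in Bmal1 knock out. High salt night fed had 3 at ZT8 and 2 at ZT12. These rhythm counts were not repeated without those libraries, so their part in the counts was not tested. Of the 5 other kinase inhibitors 2 were rhythmic in wild type, and of the 13 p53 targets 2, where the share of all rows was 17.7%.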

How the data were processed

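RNA was measured by sequencing in 126 mouse colon libraries. The authors deposited FPKM per gene in 7 tables, made with TopHat2 2.1.1, the mm10 build and Cufflinks 2.2.1 per the submitters' processing notes; the read depth of each library is unknown, so no counting error can be given. A scale factor per library, by the median of ratios, was taken from 6966 genes with at least 1 FPKM in every library, and log2(rescaled FPKM + 0.5) was used. The 11377 rows with a mean of at least 1 FPKM in some condition were tested with limma 3.58.1 in R 4.3.3 (trended, robust), with a mean for each condition and time, in 54 genotype and 72 feeding libraries separately. All p-values for genes are from limma, with Benjamini-Hochberg adjustment over all 11377 rows. The fits were tested on simulated data. The labels do not say that replicates were separate animals, so p-values measure only the spread between these samples. Alternatives were pseudocounts of 0.1 and 1, no filter, FPKM as deposited, quantile normalization, a replicate block and a covariate for gene length. In another the 14 low scale factor libraries were left out and cosine and sine terms replaced the time means. The rest left out 1 replicate number or 1 library at a time.

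The 5 genes and the pathway lists were chosen with earlier results of these data known. Genes of each list named in the text are among the 2 with the lowest p-value in that comparison; Cdk1 rhythms were chosen after their values were seen.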

Additional observations from a re-analysis of the deposited data

Results flagged for a closer look

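Interactions were flagged for 2 genes because the effect of feeding time differed between salts in a test of the difference itself. For the level of Cdkn1a, the day minus night difference under high salt minus that under low salt was -0.24 on the log2 scale (limma, adjusted p = 0.0343). For the rhythm of Ccnd1, the difference between the 2 feeding effects was 0.68 on the log2 scale (limma, adjusted p = 0.00392). Neither was called in the fit without the low scale factor libraries, which also had cosine and sine terms in place of the time means. The part of those libraries was not tested.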

How the results depend on the processing

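Counts below are of the 5 genes called. A count without that of all 11377 rows beside it does not set the 5 genes apart from other rows. With FPKM as deposited, 5 differed in rhythm between Bmal1 knock out and wild type. In level 5 differed between Bmal1 knock out and MR knock out, where 127 of all rows were higher and 10119 lower. This scale also gave 5 calls in level and 5 in rhythm between high salt day fed and high salt night fed. Between high salt night fed and low salt night fed it gave 4 in level and 5 in rhythm. In level, 9932 of all rows were higher and 52 lower in the first of these pairs, and 72 were higher and 9916 lower in the second. On that scale 2 were rhythmic in MR knock out, 0 in low salt day fed and 5 in high salt night fed, and 5 level and 3 rhythm interactions were called. Values that changed sign on it were, for Bmal1 knock out minus wild type, Cdkn1a -0.64, Ccnd1 -0.31, Gadd45a -0.68, E2f1 -0.25, Cdkn2d -0.33, Aurka -0.30, Cdk1 -0.30, Aen -0.10, Nop56 -0.12 and Srm -0.26. For Bmal1 knock out minus MR knock out they were Ccnd1 -0.32 and Gadd45a -0.50. They were Wee1 0.34, Cdkn1a 0.34, Ccnd1 0.35 and Gadd45a 0.22 for high salt day fed minus night fed, and Cdkn1a -0.39, Ccnd1 -0.16 and Gadd45a -0.40 for high salt night fed minus low salt night fed. They were Myc -0.0087 for high salt day fed minus low salt day fed, and Cdkn1a 0.20, Ccnd1 0.37 and Gadd45a 0.28 for the level interaction.

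With the length score, 2 level calls were made for Bmal1 knock out against wild type, where 2131 of all rows were higher and 2061 lower. In rhythm, 2 calls were made between Bmal1 knock out and MR knock out. The length score also gave 0 level calls between high salt day fed and high salt night fed, where 1436 of all rows were higher and 1473 lower. It gave 2 rhythm calls between high salt night fed and low salt night fed. Between high salt day fed and low salt day fed it gave 2 level and 3 rhythm calls. In level, 1841 of all rows were higher and 1571 lower there. It gave 0 level and 2 rhythm interactions. Signs turned for Myc 0.18 and Gadd45a -0.015 (Bmal1 knock out minus wild type), Myc 0.13 (MR knock out minus wild type), Wee1 0.0099 and Myc 0.056 (Bmal1 knock out minus MR knock out), Myc -0.064 (high salt day fed minus night fed), Wee1 0.14 and Myc 0.12 (high salt night fed minus low salt night fed), and Wee1 -0.020 and Myc -0.10 (level interaction).

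The fits without the low scale factor libraries had cosine and sine terms in place of a mean for each time. In them Bmal1 knock out and wild type differed in level for 3, where 2879 of all rows were higher and 4755 lower, and in rhythm for 0. Bmal1 knock out and MR knock out differed in rhythm for 2, and 2 were rhythmic in Bmal1 knock out and 1 in high salt night fed. High salt day fed and night fed then differed in level for 0, where 599 of all rows were higher and 207 lower, and in rhythm for 1. Both high salt against low salt comparisons differed in rhythm for 0, and 0 level and 0 rhythm interactions were called. Signs turned for Myc -0.14 (high salt day fed minus night fed), Wee1 0.14 and Myc 0.18 (high salt night fed minus low salt night fed) and Myc -0.14 (level interaction). Quantile normalization gave 3 level calls for Bmal1 knock out against wild type, where 4290 of all rows were higher and 4726 lower. It gave 2 level and 2 rhythm calls for high salt day fed against low salt day fed. In level, 894 of all rows were higher and 1170 lower there. It also gave 2 rhythms in low salt day fed and 2 rhythm interactions. Signs turned for Wee1 0.044 and Myc 0.042 (high salt night fed minus low salt night fed) and Myc -0.017 (level interaction). No filter gave 0 rhythm calls for high salt night fed against low salt night fed, and a pseudocount of 1 gave Myc 0.00095 there. The cause of these changes was not tested.

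Leaving out a replicate number or 1 library gave 3 to 5 level and 0 to 4 rhythm calls for Bmal1 knock out against wild type, 0 to 5 rhythm calls for Bmal1 knock out against MR knock out, 0 to 1 for MR knock out against wild type, and 2 to 4 rhythms in Bmal1 knock out. It gave 0 to 1 level and 1 to 3 rhythm calls for high salt day fed against night fed, 0 to 2 rhythm calls for high salt night fed against low salt night fed, 0 to 2 level and 0 to 1 rhythm calls for high salt day fed against low salt day fed, 0 to 3 rhythms in high salt day fed, 2 to 5 in high salt night fed, 0 to 1 in low salt day fed, and 0 to 1 level and 0 to 2 rhythm interactions. Level differences that crossed 0, none of them called, ranged from -0.056 to 0.065 for Gadd45a in MR knock out minus wild type and from -0.12 to 0.050 for Wee1 in high salt day fed minus high salt night fed. In high salt day fed minus low salt day fed Myc ranged from -0.0035 to 0.076. In high salt night fed minus low salt night fed Wee1 ranged from -0.070 to 0.035 and Myc from -0.11 to 0.094. Day minus night under low salt ranged from -0.10 to 0.031 for Ccnd1, -0.079 to 0.10 for Myc and -0.12 to 0.0029 for Gadd45a. The level interaction ranged from -0.028 to 0.12 for Myc and -0.14 to 0.039 for Ccnd1.

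The replicate block changed no call among the 5 genes; with it, 5 of 5 were still called in level for Bmal1 knock out against wild type. Whether replicate numbers pair samples is not known. Correlations of same-numbered samples, taken on deviations from the mean of their condition and time, ran from -0.58 to 0.57 and cannot settle it. Without read depth, differences of low genes such as Wee1 cannot be given a counting error.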
